A study of Macaca mulatta with 24 samples.

Results

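Interleukin 1 (IL1) and interleukin 18 (IL18) ligands, receptors and inhibitors were followed in whole blood of rhesus macaques around a total body irradiation with 4 Gy. The members were the 10 genes IL1A, IL1B, IL1RN, IL1R1, IL1RAP, IL1R2, IL18, IL18BP, IL18R1 and IL18RAP, taken with every non-control array probe that carries their name. The gene name column gave 11 probes for 8 of these genes, 2 further probes (IL1R1 and IL18RAP) were named by their transcript accession and 1 (IL1A) by its description, so that 14 of 43603 probes and 10 of 15500 gene symbols on the array belonged to the set.

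The 24 one-colour (Cy3) arrays held total RNA of 7 adult animals, 4 male and 3 female, in which the globin transcripts had been depleted. The pre-irradiation group had 7 arrays, all at 0 Gy. The irradiated groups had 4 arrays (day 3), 6 arrays (day 5) and 7 arrays (day 7). The pre-irradiation arrays served as controls for every day, and each of the 7 animals with arrays was irradiated. The replicate number was the animal. Day 3 had animals 1, 2, 4 and 7, and day 5 lacked animal 5. For the control blood the labels give day 0, and for the radiation X-rays. The study's methods instead give a draw some days ahead of the exposure and a 60Co source. The study's methods also name a human array, and the scanner files carry a rhesus design.

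IL1 is a family of inflammatory cytokines. IL1A and IL1B bind the receptor IL1R1, which signals once the accessory chain IL1RAP joins it. IL1RN, the IL1 receptor antagonist, occupies the receptor without signalling, and IL1R2 is a decoy receptor that binds the ligand and cannot signal. IL18 is built on the same plan, with IL18R1 as the binding chain, IL18RAP as the accessory chain and IL18BP as a secreted protein that captures the ligand. Both pathways run through MYD88 and the IRAK kinases, and the ligands IL1B and IL18 are cut into their active form by caspase 1. Neutrophils and monocytes are known sources of IL1B and IL1RN in blood, and IL18 receptors are known on natural killer and T cells.

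All member probes were 60 bases long. The sequences below are shown because the changes described next were read from them, and no base is capitalised since no part of them was singled out. For IL18RAP only the first 30 bases are given.
IL1B: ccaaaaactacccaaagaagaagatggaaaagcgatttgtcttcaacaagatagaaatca
IL1R1: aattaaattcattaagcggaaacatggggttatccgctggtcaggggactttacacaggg
IL1RAP, brighter probe: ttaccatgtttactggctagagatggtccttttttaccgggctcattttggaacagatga
IL1RAP, dimmer probe: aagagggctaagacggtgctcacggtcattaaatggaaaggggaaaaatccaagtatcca
IL18BP: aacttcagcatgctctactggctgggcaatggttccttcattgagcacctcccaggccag
IL18RAP: gacagaactcacatctgtgtgtgtgaatgt
The share of G and C was 35% in the IL1B probe, 45% in those of IL1R1 and IL18RAP and 55% in that of IL18BP, and it was 41.7% and 45% in the brighter and dimmer IL1RAP probes.

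The values are log2 of the processed signal, an intensity, after each array was shifted to the median array. They compare a gene between arrays, not 2 genes with each other. Each irradiated group was set against the 7 control arrays in a limma fit, which took in the probes that 4 or more of the 24 arrays flagged as well above background. A gene was represented by its brightest probe and counted as called when its p, adjusted by Benjamini-Hochberg across the whole fit, was under 0.005. The p-values of the 3 days share their control arrays. Before irradiation 49.6 to 53.1% of probes were well above background, and 48.3 to 61.2% on the later arrays. The precision is limited by the number of arrays.

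Session and day could hardly be separated for the early days. All day 3 and day 5 arrays were scanned in session 2 with only 1 pre-irradiation array, that of animal 5, whereas 6 pre-irradiation and 6 day 7 arrays shared session 1. The day 7 comparison was therefore also run within session 1. The day 3 and day 5 comparisons were also run with the session as a block, where they rest on that 1 array. Animal 5 had no array at day 3 or day 5. Every within-animal change from control to these days, and from these days to day 7, therefore crosses the sessions.

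Of the 10 members, 9 were bright enough to be tested. At day 3, 1 of the 9 rose (IL1B). At day 5, 3 of 9 rose (IL1B, IL1RAP and IL18RAP), and at day 7, 3 of 9 (IL1R1, IL18R1 and IL18RAP). None fell on any day. Among the brightest probes of all symbols, 5.88%, 6.18% and 2.64% were called higher on the 3 days. The shares called lower were 7.72%, 9.29% and 7.31%, and those in either direction 13.6%, 15.5% and 9.95%. The median log2 change of the 9 members was 1.02, 1.35 and 0.89 on the 3 days, against 0.02 on each day for all probes tested, and it was positive for 8, 9 and 9 of them. IL18R1 passed the filter on dim probes only through arrays after irradiation, so its difference was partly set by the filter. Without it 1, 3 and 2 of 8 members were called, with medians of 1.05, 1.45 and 0.85.

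**Figure D1:**
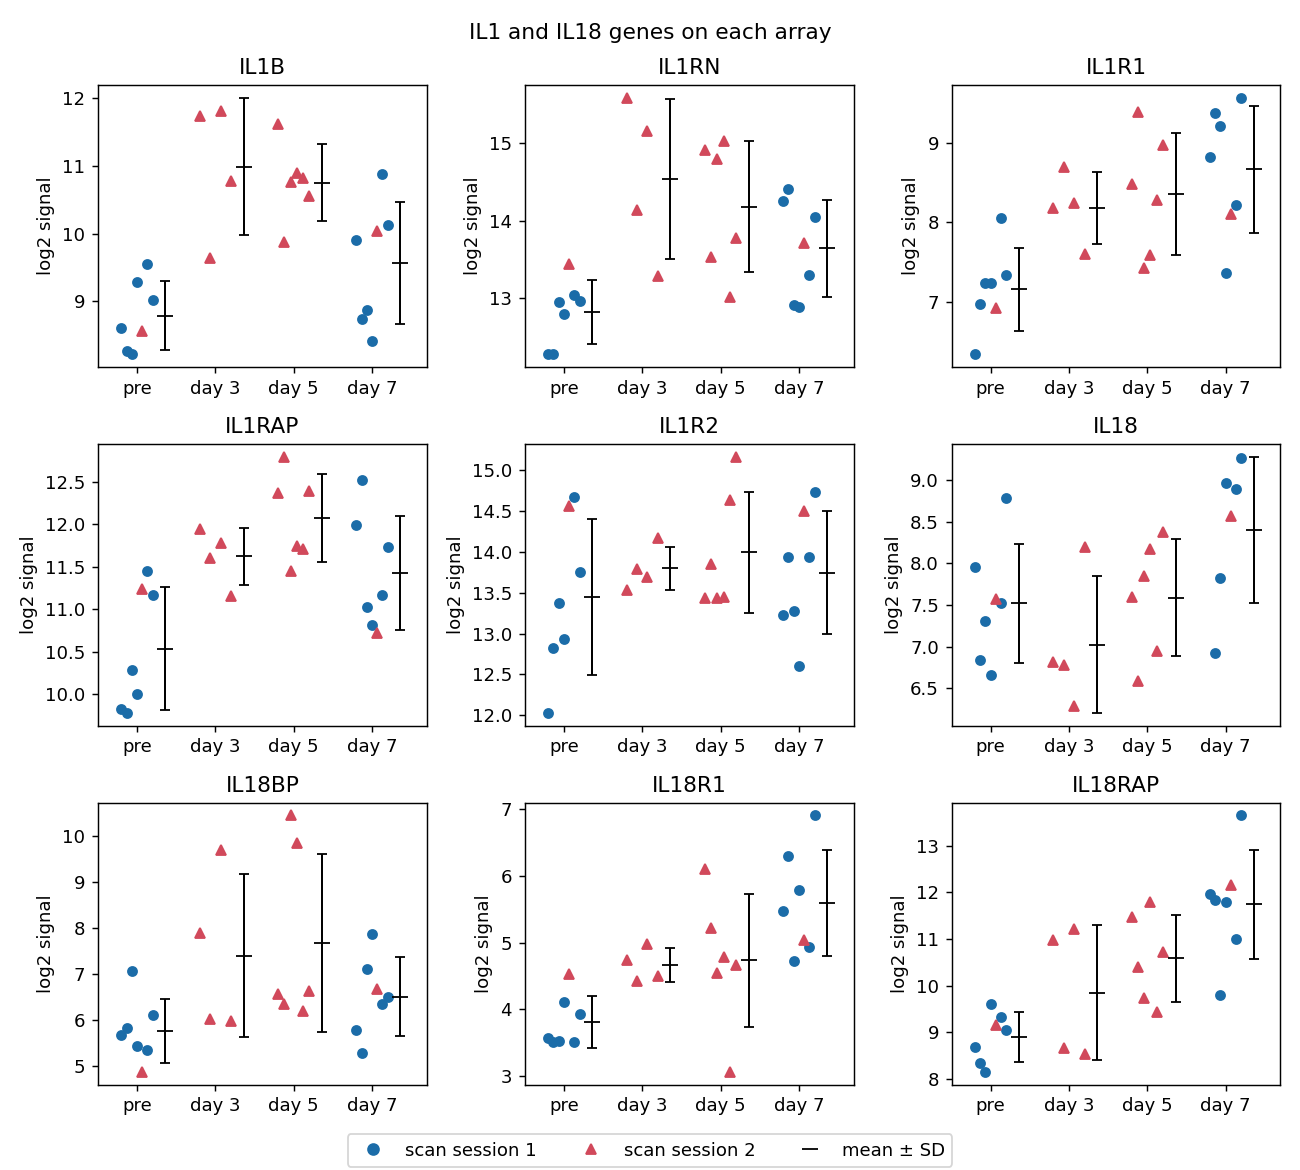
Log2 signal of the brightest probe of the 9 tested members on each of the 24 arrays, by group, with the scan session as the marker and the mean ± SD beside each group. The IL1B arrays of days 3 and 5 all lie above the pre-irradiation arrays, and the IL18RAP and IL18R1 arrays of day 7 do so too.

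Of the ligands of the IL1 arm, only IL1B could be followed. IL1A could not be measured in this blood: its probe named by the gene column was well above background on 0 of 24 arrays, and the other on 1, the day 5 array of animal 1, where it read 6.22 on the log2 scale. IL1B, the main secreted form, rose early. Before irradiation its log2 signal ran from 8.22 to 9.55 with a median of 8.60. At day 3 the 4 arrays read 11.74, 9.64, 11.81 and 10.78 (animals 1, 2, 4 and 7), so that the lowest lay above the highest control. At day 5 it ran from 9.88 to 11.62 with a median of 10.79, again with 6 of 6 arrays above all controls. At day 7 it ran from 8.41 to 10.88 with a median of 9.90, and 4 of 7 arrays were above all controls.

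Expressed as a change against pre-irradiation, IL1B was 4.62-fold higher at day 3 (log2 change 2.21 ± 0.41 (SE), n = 4 against 7, limma adjusted p = 0.0021) and 3.92-fold higher at day 5 (1.97 ± 0.28, n = 6, limma adjusted p = 0.000158). At day 7 the log2 change was 0.78 ± 0.36 with a limma adjusted p of 0.122. Measured within animals, IL1B stood above the animal's own pre-irradiation level in 4 of 4 animals at day 3, 6 of 6 at day 5 and 6 of 7 at day 7. In a fit that paired arrays by animal, the day 3 change of 2.2 ± 0.32 had a limma adjusted p of 0.0072 and the call was lost. With the session as a block the log2 changes were 2.43 ± 0.76 at day 3 and 2.2 ± 0.56 at day 5, with limma adjusted p of 0.101 and 0.0341. The day 3 call was also lost without animal 1, 4 or 7 (limma adjusted p = 0.0158, 0.0127 and 0.00869).

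IL1RN, the antagonist, was higher on most arrays after irradiation but was not called on any day. Its brighter probe ran from 12.28 to 13.44 with a median of 12.95 before irradiation. The day 3 arrays read 15.58, 14.13, 15.15 and 13.29, and only that of animal 7 fell within the controls. At day 5 the probe ran from 13.02 to 15.03 with a median of 14.28, and at day 7 from 12.89 to 14.41 with a median of 13.71. The log2 changes were 1.71 ± 0.39, 1.35 ± 0.33 and 0.82 ± 0.27, with limma adjusted p of 0.00605, 0.00647 and 0.0359. The second IL1RN probe was dimmer, with group means of 6.05, 7.25, 7.14 and 6.71, and log2 changes of 1.20 ± 0.46, 1.09 ± 0.38 and 0.66 ± 0.29 that were not called either. Quantile normalization, the series matrix values and a stricter filter each brought the brighter probe under the threshold on days 3 and 5. Blocked on the session, its log2 changes were 1.1 ± 0.69 and 0.74 ± 0.64 (limma adjusted p = 0.393 and 0.549).

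The receptor chains were called at day 5 (IL1RAP) and day 7 (IL1R1). IL1R1, the signalling chain, ran from 6.35 to 8.06 with a median of 7.23 before irradiation. It read 8.17, 8.70, 8.25 and 7.60 at day 3, where 3 of 4 arrays lay above all controls. At day 5 it ran from 7.42 to 9.39 with a median of 8.39, and at day 7 from 7.36 to 9.57 with a median of 8.82, where the array of animal 4 was the only one within the controls. The log2 changes were 1.02 ± 0.29, 1.20 ± 0.33 and 1.51 ± 0.34, and the limma adjusted p were 0.0188, 0.0124 and 0.00425, so that only day 7 was called, at 2.84-fold. Every one of 7 animals stood above its own control at day 7. This call lay close to the threshold and was lost under 11 of the 21 alternatives tried at the same threshold. With the animal as a block the limma adjusted p was 0.00903. Within session 1, the same arrays as without animal 5, it was 0.0104 at a log2 change of 1.56 ± 0.38 (n = 6 against 6, limma). The call was also lost without animal 1, 2, 3, 5 or 7 (limma adjusted p between 0.0104 and 0.0215).

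IL1RAP, the accessory chain, ran from 9.78 to 11.45 with a median of 10.29 in its brighter probe before irradiation. The day 3 arrays read 11.94, 11.60, 11.78 and 11.16. At day 5 the probe ran from 11.44 to 12.80 with a median of 12.05, and at day 7 from 10.72 to 12.52 with a median of 11.17. The log2 changes were 1.08 ± 0.36, 1.54 ± 0.33 and 0.89 ± 0.35, with limma adjusted p of 0.0342, 0.00281 and 0.0693. Only the day 5 rise, 2.90-fold with 5 of 6 arrays above all controls, was called. The dimmer probe gave a similar size at day 5, 1.51 ± 0.44, but a limma adjusted p of 0.0159.

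The IL1RAP call also moved with the setting. With the animal as a block the limma adjusted p was 0.00701 at a log2 change of 1.65 ± 0.34. With the session as a block the change was 0.83 ± 0.63 with a limma adjusted p of 0.476. It was lost without animal 1, 2, 3, 4 or 7 (limma adjusted p between 0.00637 and 0.0158).

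IL1R2, the decoy, showed the smallest changes of the IL1 genes tested. It ran from 12.03 to 14.67 with a median of 13.38 before irradiation and read 13.53, 13.79, 13.70 and 14.17 at day 3. At day 5 it ran from 13.43 to 15.17 with a median of 13.65, and at day 7 from 12.60 to 14.73 with a median of 13.93. The groups overlapped almost fully, and the log2 changes of 0.35 ± 0.45, 0.55 ± 0.44 and 0.30 ± 0.42 had limma adjusted p of 0.57, 0.357 and 0.636. With the session as a block the changes at days 3 and 5 turned to -0.76 and -0.57. Against the animal's own control IL1R2 was higher in 4 of 4 animals at day 3, by 0.41 to 1.51. It was higher in 5 of 6 at day 5 and in 3 of 7 at day 7.

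**Figure D2:**
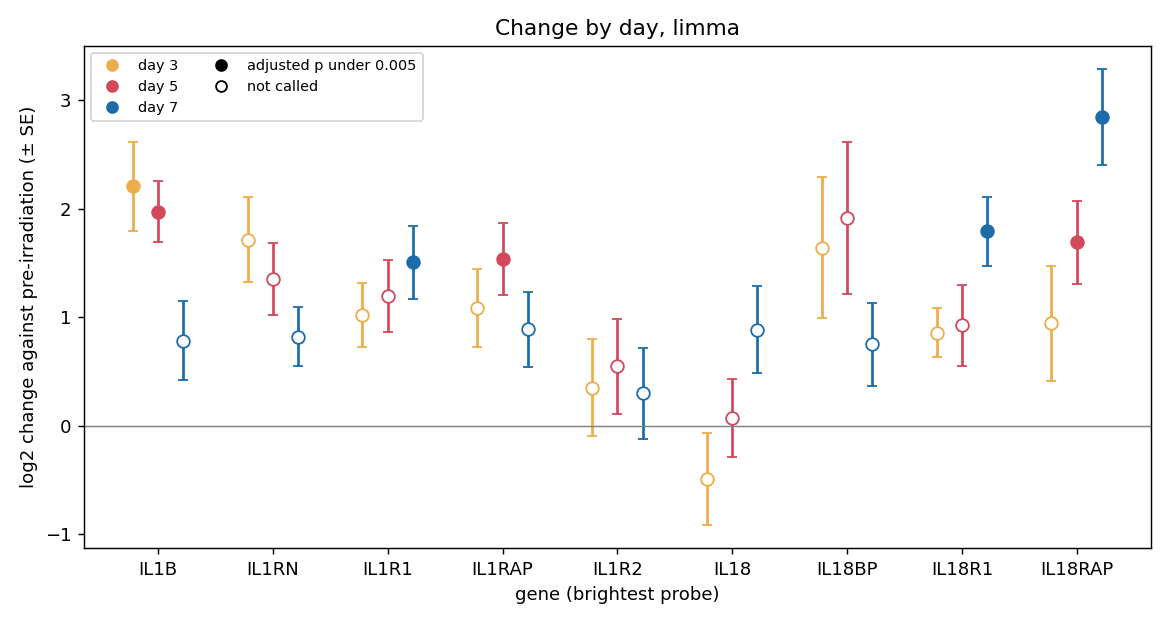
Log2 change of each tested member against the 7 pre-irradiation arrays at days 3, 5 and 7 (points) with the standard error of the limma fit (bars), filled where the adjusted p was under 0.005. IL1B is filled at days 3 and 5, IL1RAP at day 5, IL18RAP at days 5 and 7, and IL1R1 and IL18R1 at day 7.

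In the IL18 arm the ligand itself was not called on any day. IL18 ran from 6.66 to 8.79 with a median of 7.52 before irradiation and read 6.82, 6.78, 6.29 and 8.20 at day 3. All 4 of these animals were below their own control at day 3. At day 5 it ran from 6.59 to 8.38 with a median of 7.72, and on the 6 usable day 7 arrays from 6.92 to 9.27 with a median of 8.73, since the spot of animal 1 was marked as an outlier and left out. The log2 changes were -0.50 ± 0.42, 0.07 ± 0.36 and 0.89 ± 0.40, with limma adjusted p of 0.378, 0.902 and 0.118. At day 7 all 6 animals stood above their own control. The other IL18 probe was well above background on 0 of 24 arrays.

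IL18BP, which neutralizes IL18, had the widest spread of the 9 members at days 3 and 5 (SD 1.78 and 1.93), and one of 0.85 at day 7. It ran from 4.86 to 7.07 with a median of 5.65 before irradiation. The day 3 arrays read 7.89, 6.02, 9.70 and 5.97 (animals 1, 2, 4 and 7), so that animal 4 was far above and animals 2 and 7 were within the controls. At day 5 the arrays of animals 3 and 4 read 10.45 and 9.84 while the other 4 ran from 6.19 to 6.63. At day 7 it ran from 5.27 to 7.86 with a median of 6.49. The log2 changes were 1.64 ± 0.65, 1.91 ± 0.70 and 0.75 ± 0.38, with limma adjusted p of 0.0673, 0.0467 and 0.162, and none was called. Without animal 4 the changes were 0.82, 1.42 and 0.47.

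IL18RAP, the accessory chain of the IL18 receptor, showed the largest rise of the 9 members at day 7 and was also called at day 5. Before irradiation it ran from 8.15 to 9.61 with a median of 9.04. At day 3 it read 10.98, 8.65, 11.21 and 8.53, high in animals 1 and 4 and within the controls in animals 2 and 7. At day 5 it ran from 9.43 to 11.80 with a median of 10.56, with 5 of 6 arrays above all controls. At day 7 it ran from 9.81 to 13.66 with a median of 11.84, and 7 of 7 arrays lay above all controls. The change reached 3.22-fold at day 5 (log2 1.69 ± 0.38, n = 6 against 7, limma adjusted p = 0.00369) and 7.20-fold at day 7 (log2 2.85 ± 0.44, n = 7 against 7, limma adjusted p = 0.000331). At day 3 it was 0.94 ± 0.53 with a limma adjusted p of 0.18.

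The day 7 rise of IL18RAP was called under each of the 21 alternatives tried at the same threshold, with log2 changes from 2.48 to 3.05. Against the animal's own control it ran from 1.66 to 4.61 with a median of 3.00, above it in 7 of 7 animals. Within session 1 the log2 change was 2.82 ± 0.51 (n = 6 against 6, limma adjusted p = 0.00192), and on the 4 slides that held both groups the differences were 2.48, 2.58, 3.41 and 3.00. The day 5 call was weaker: it was lost with the session as a block (1.44 ± 0.76, limma adjusted p = 0.293), with all groups in 1 fit (0.0167), with no filter (0.00599), after normexp (0.122) and without animal 1, 2, 3, 4, 5 or 7 (limma adjusted p between 0.00571 and 0.0198).

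IL18R1, the ligand-binding chain, was dim: it was well above background on 0 of 7 control arrays, 0 of 4 at day 3, 2 of 6 at day 5 and 3 of 7 at day 7, so its level before irradiation is only bounded from above. Its measured log2 signal ran from 3.50 to 4.52 before irradiation and from 4.73 to 6.91 at day 7, without overlap. At day 7 the fit gave a log2 difference in measured signal of 1.79 ± 0.32 (limma adjusted p = 0.000816). With controls not well above background and a filter passed only through irradiated arrays, this is not a measured size of change in expression. At day 5 the fitted change had a limma adjusted p of 0.0686. No fold is given for this reason, and most arrays of these days were not well above background either. After the normexp background correction the day 7 log2 change was 0.29 ± 0.41 (limma adjusted p = 0.886), and with the series matrix values it was 1.57 ± 0.45 (0.017), so that the call was lost under both, as it was without animal 2 (limma adjusted p = 0.00507).

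The groups were free of overlap with the controls for 1 of 9 members at day 3 (IL1B), 1 at day 5 (IL1B) and 2 at day 7 (IL18R1 and IL18RAP), or 1 of 8 without IL18R1, whose overlap was partly set by the filter. Over the brightest probes of all symbols the shares without overlap were 21.3%, 13.5% and 8.2%.

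**Figure D3:**
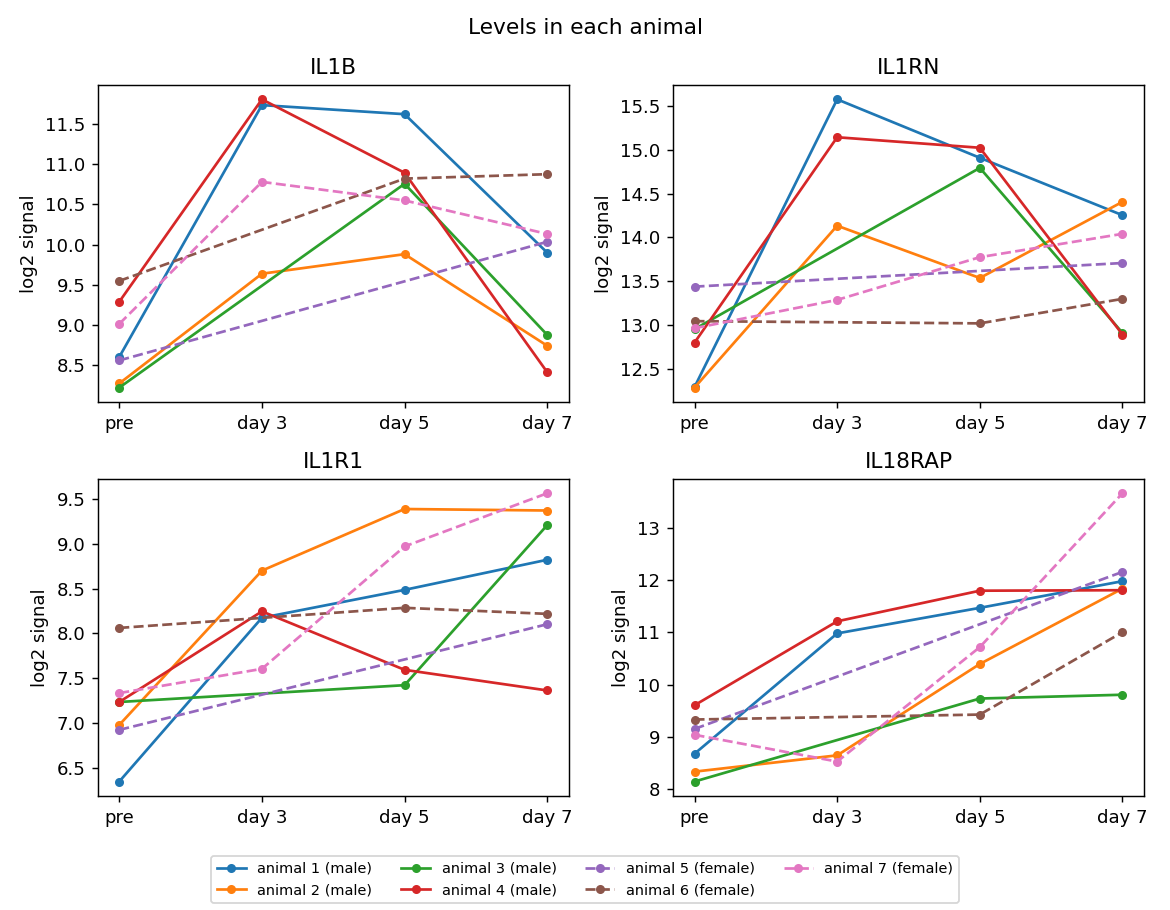
Log2 signal of IL1B, IL1RN, IL1R1 and IL18RAP over the days in each of the 7 animals, males as solid and females as dashed lines, joined over days with no array. IL18RAP ends above its start in all 7 animals, and IL1B of the males is lower at day 7 than at day 5.

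The order of the group means differed between members. The group means of IL1B and IL1RN were highest at day 3 and lower at each later day, whereas the means of IL1R1 and IL18RAP were lowest before irradiation and larger on each later day. IL1RAP, IL1R2 and IL18BP were highest at day 5, and IL18 was lowest at day 3 and highest at day 7. Compared directly with each other, the days gave no called member: 0 of 9 between days 5 and 3, 7 and 3, or 7 and 5, with 0, 4 and 2 members at an unadjusted limma p under 0.05 and the smallest limma adjusted p at 0.628, 0.0775 and 0.11. Of all probes, 2726 of 27132, 8870 of 27132 and 5632 of 27138 had an unadjusted p under 0.05 in these comparisons. Over the brightest probes of all symbols 0.0362%, 1.63% and 0.00904% were called in these comparisons. Between day 3 and day 7 the 4 members were IL1B (log2 change -1.42 ± 0.53), IL18 (1.38 ± 0.49), IL18RAP (1.91 ± 0.70) and IL18R1, for which no size is given because it was not well above background on any day 3 array, and between day 5 and day 7 they were IL1B (-1.19 ± 0.39) and IL18RAP (1.16 ± 0.54). Within animals, IL18RAP was higher at day 7 than at day 5 in 6 of 6 animals and than at day 3 in 4 of 4. IL1B was lower at day 7 than at day 3 in 4 of 4 animals and than at day 5 in 5 of 6. In each of these animals the day 7 array was scanned in session 1 and those of days 3 and 5 in session 2. Day and session cannot be told apart in these counts. With the animal as a block no member was called between days either, and the smallest limma adjusted p were 0.167, 0.0327 and 0.0423.

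Differences between a ligand or receptor and its inhibitor were compared on the same array, where a shift of the whole array cancels. For IL1B minus IL1RN, the mean difference was higher than before irradiation by 0.49 at day 3, by 0.62 at day 5 and lower by 0.04 on the log2 scale at day 7, with exact two-sided permutation p of 0.264, 0.108 and 0.927. For IL1R1 minus IL1R2 the changes were 0.67, 0.65 and 1.21, with exact permutation p of 0.148, 0.146 and 0.0128, and 5 of 7 day 7 arrays lay above all controls. For IL18 minus IL18BP the changes were -2.14, -1.84 and 0.01, with exact permutation p of 0.0515, 0.0256 and 0.973, and the day 3 value ran from -2.85 to -1.21 when 1 animal was left out, the latter without animal 4. After Benjamini-Hochberg adjustment over the 9 tests the smallest p was 0.115, so none passed 0.05. This test treats the arrays as independent. Against the animal's own control, IL1R1 minus IL1R2 was higher in 7 of 7 animals at day 7, by 0.45 to 2.08. IL18 minus IL18BP was lower in 4 of 4 animals at day 3 and 6 of 6 at day 5. An exact two-sided sign-flip permutation within animals gave p of 0.0156, 0.125 and 0.0312 for these, each the smallest p that its number of animals allows, and 0.141, 0.225 and 0.141 after adjustment over the 9 tests. For IL1R1 minus IL1R2 at days 3 and 5, where animal 5 had no array, the mean within-animal changes were 0.29 and 0.43, smaller than the unpaired 0.67 and 0.65. The smallest p that splits of unpaired arrays could give were 0.00606 at day 3, 0.00117 at day 5 and 0.000583 at day 7, or 0.00117 for IL18 at day 7. After the normexp background correction the changes of IL1R1 minus IL1R2 were 0.21, 0.29 and 0.63, with 1 of 7 day 7 arrays above all controls, and those of IL18 minus IL18BP at days 3 and 5 were -1.10 and -1.03.

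**Figure D4:**
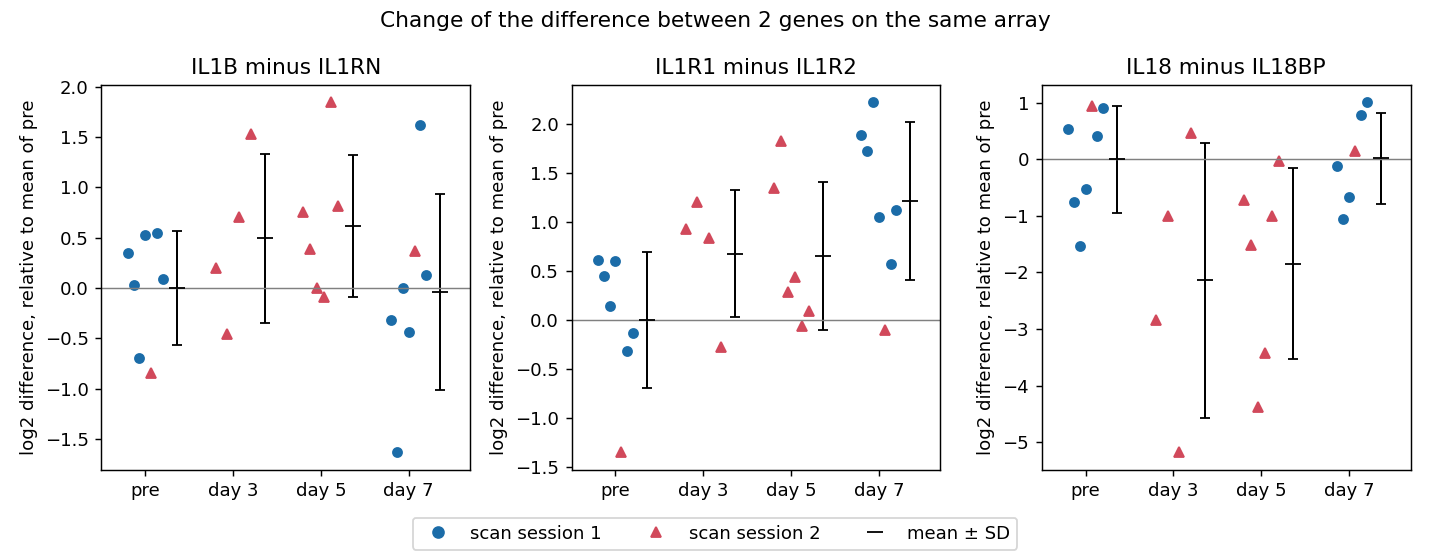
Log2 difference between 2 genes on the same array, relative to the mean of the pre-irradiation arrays (y axis), for each array by group, with the scan session as the marker and mean ± SD. IL18 minus IL18BP lies below all controls on 2 arrays at day 3 and 2 at day 5, and IL1R1 minus IL1R2 lies above all controls on 5 of 7 arrays at day 7.

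The response was also compared between the 4 males and the 3 females at day 7. The limma interaction passed an adjusted p of 0.05 for none of the 9 members and for 0 of 27134 probes, and 1 member had an unadjusted limma p under 0.05. This was IL1RAP, whose rise was larger by 1.69 ± 0.53 on the log2 scale in males than in females (limma adjusted p = 0.412), with means of 9.97 and 11.59 in males and 11.29 and 11.21 in females before and at day 7.

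Other genes of the pathway were grouped by role into 4 lists, of which 33 genes were tested. In all 2, 4 and 2 of the 33 were called on the 3 days, each of them higher, where the shares called higher over all symbols were 5.88%, 6.18% and 2.64%. Of other IL1 family ligands and receptors, 9 of 12 had a probe and 2 of these were bright enough, and neither was called on any day. Of receptor-proximal signalling genes, 0 of 11 tested were called at day 3, 1 at day 5 and 0 at day 7, with medians of 0.12, 0.01 and -0.15. The 1 gene was PELI2, an E3 ligase acting on IRAK proteins, which rose at day 5 by 1.32 ± 0.28 on the log2 scale (n = 6 against 7, limma adjusted p = 0.00268) with 6 of 6 arrays above all controls.

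Of 9 genes of maturation and release, 1 was called at day 3, 2 at day 5 and 1 at day 7, all higher, with medians of 0.86, 0.49 and 0.21. GSDMD, the gasdermin whose cut form opens pores through which IL1B leaves the cell, rose on each day, by 1.22 ± 0.20, 0.94 ± 0.15 and 0.61 ± 0.14 (limma adjusted p = 0.0012, 0.000448 and 0.00451), with every irradiated array above all controls. AIM2, a sensor of cytosolic DNA that assembles an inflammasome, rose at day 5 by 1.39 ± 0.21 (limma adjusted p = 0.000278).

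Of 11 tested genes induced by IL1 or IL18 signalling, 1 was called on each day, with medians of 0.77, 0.86 and 0.38. This was NFKBIZ, a nuclear cofactor of NF-kB that IL1 signalling induces, which rose by 1.32 ± 0.23, 1.04 ± 0.15 and 0.97 ± 0.20 (limma adjusted p = 0.00144, 0.000217 and 0.00264), with all irradiated arrays above all controls. With the animal as a block the 4 lists gave 1 call at day 3, 5 at day 5 and 0 at day 7 in place of 2, 4 and 2, and the call at day 3 was another gene, NLRC4, a further inflammasome sensor, named here after its value was seen. Within session 1 none of the 33 genes was called at day 7. After the normexp background correction none was called on any day. The calls of days 3 and 5 were also lost with the session as a block, which rests on the pre-irradiation array of animal 5.

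In whole blood, fewer cells of a type and less RNA per cell cannot be told apart. The markers of some blood cell types were called higher and those of others lower or not at all. Of 8 neutrophil genes, 3, 3 and 2 were called higher at days 3, 5 and 7, and the log2 of their summed signal ran from 17.5 to 18.6 on the control arrays and 18.5 to 19.9, 18.6 to 19.5 and 18.2 to 19.6 on those of the 3 days. Of 7 tested monocyte genes, 1, 1 and 0 were called higher, with summed levels of 16.2 to 16.9 on the control arrays and of 16.9 to 17.3, 16.5 to 17.3 and 16.0 to 17.2 on those of the 3 days. Of 8 natural killer and cytotoxic genes none was called, with summed levels of 18.3 to 19.2, 18.7 to 19.6, 18.3 to 19.6 and 18.5 to 19.7, nor was any of 7 tested T cell genes, whose summed levels ran from 15.9 to 16.5 before irradiation and from 15.1 to 16.9 after it.

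Other lineages moved in larger steps. All 6 tested B cell genes fell on each day, from summed levels of 14.8 to 15.3 before irradiation to 10.5 to 11.99 on day 3 arrays and 11.1 to 11.97 on day 7 arrays. All 6 erythroid genes fell on each day as well, from summed levels of 18.5 to 19.5 on the control arrays to 14.8 to 16.6, 11.6 to 13.4 and 11.04 to 17.8 on those of the 3 days. All 7 platelet genes were higher at day 3, at 18.5 to 19.2 against 15.4 to 16.9 before irradiation, 1 at day 5 and none at day 7. Of 6 genes of neutrophil precursor granules, 1 rose and 1 fell at days 5 and 7, and of 4 tested basophil and eosinophil genes none was called. The part of these shifts in the changes of the members was not tested.

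The genes that resembled each member most over the arrays were named by Pearson correlation of brightest probes, as a description over 24 arrays that share their group structure. For IL1B, C19H19orf38 (r = 0.929) was among the 3 most alike. For IL1RN they were NOD2 (0.886), CD300A (0.874) and FFAR2 (0.855), the last a gene of the neutrophil list. For IL1R1 they were CCDC88B (0.935), DEF8 (0.925) and ZSWIM8 (0.912). For IL1RAP they were BCL6 (0.946), ARHGAP26 (0.940) and IGF2R (0.923), and for IL1R2 they were KDM5C (0.885), CEACAM3 (0.814) and PDZD8 (0.791).

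In the IL18 arm, IL18RAP was most like CLEC4D (0.912), S100A12 (0.867) and B4GALT4 (0.849), and IL18R1, dim on most arrays, was most like IL18RAP (0.844), LARP1B (0.817) and S100A12 (0.815). S100A12 is also a gene of the neutrophil list. IL18BP was most like CD200R1 (0.898), GCH1 (0.884) and MOCOS (0.883), and IL18, over 23 arrays, was most like IFT88 (0.803), SSBP4 (0.773) and VOPP1 (0.769). Among pairs of members the highest correlations were between IL18R1 and IL18RAP (0.844), IL1R1 and IL1RAP (0.757) and IL1B and IL1RN (0.726), and the lowest, over 23 arrays, was between IL18 and IL1RN (-0.17).

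By the reference annotation, IL1A, IL1B, IL1RN and the 4 receptor genes IL1R2, IL1R1, IL18R1 and IL18RAP lie on chromosome 13, with IL1A next to IL1B, IL1R2 next to IL1R1 and IL18R1 next to IL18RAP. IL1RL2 follows IL1R1 and IL1RL1 precedes IL18R1. IL1RAP lies on chromosome 2, between GMNC and TMEM207, and IL18 and IL18BP lie on chromosome 14.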

How the data were processed

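Total RNA was extracted from whole blood and globin transcripts were depleted. The authors hybridized it to one-colour Agilent arrays and deposited the scanner output, from which the processed signal, an intensity with the local background subtracted, was used. The labels name Feature Extraction 10.7, and the file headers 12.0.2.2. The authors also deposited a series matrix of log2 values normalized to the median array, used as an alternative through the 18497 rows that matched probes.

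Here log2 was taken, outlier spots were left out, spots of a probe were averaged, and each array was shifted to the median array over 27138 probes well above background on at least 4 arrays (shifts of -0.87 to 2.03). Probes were named by the gene name, or by accession in the reference. Groups were compared with limma 3.58.1 (lmFit, eBayes) in R 4.3.3, with statmod 1.5.0, and figures were drawn with matplotlib 3.10.9. Differences between 2 genes were compared by exact permutation of arrays and, within animals, of signs. Replicate numbers were checked as animals: deviations from group means of same-numbered arrays correlated at 0.133 to 0.409 with day 3, 0.171 to 0.458 with day 5 and 0.129 to 0.44 with day 7, and no 2 arrays of a group exceeded r = 0.978. The limma steps were tested on simulated data. Alternatives changed the scaling, background correction, filter, source of values, samples in the fit, threshold, blocks (animal, slide, session), sex, and each animal left out. Genes were named as members, as the 3 called genes of largest change in each pathway list, as neighbours, or as the 3 most alike genes (some of those for IL1B are not reported here); cell markers are given by counts. The members and lists were chosen with earlier results of these data known. No genome of the array's build and no promoter or protein sequences were used.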

Additional observations from a re-analysis of the deposited data

How the results depend on the processing

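The count of members called at day 3 was 1 in the report. It was 2 after quantile normalization, with the series matrix values, with a stricter filter on dim probes and with all 4 groups in 1 fit, and 5 at an adjusted p under 0.05. It was 0 after normexp background correction and with the replicate block, the slide or the scan session as a block, where slide and session rest on 1 pre-irradiation array. The count at day 5 (3 in the report) was 0 after normexp and with the session as a block, and 6 at an adjusted p under 0.05. The count at day 7 (3) was 1 after normexp. Leaving out 1 animal at a time gave 0 to 2 members at day 3, 1 to 4 at day 5, 1 to 3 at day 7, and 0 between days. The replicate block gave 2 at day 5 and 2 at day 7. The cause of these shifts was not tested. Normexp left only 139, 239 and 315 probes called over the whole array on the 3 days. With the slide as a block 0 probes of the whole array were called at day 3, and with the session as a block 37 at day 3 and 383 at day 5.

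The pathway lists (2, 4 and 2 calls in the report) gave 0, 0 and 0 after normexp. At day 3 they gave 4 with all groups in 1 fit or any probe called, 1 with the replicate block, 0 with the slide or session as a block and 12 at an adjusted p under 0.05. At day 5 they gave 7 with any probe, 0 with the session as a block and 11 at an adjusted p under 0.05. At day 7 they gave 1 with the series matrix values, the slide as a block or sex as a covariate, 0 with no filter, the replicate block or session 1 alone, and 6 at an adjusted p under 0.05. Leaving out 1 animal gave 0 to 3, 3 to 4 and 0 to 1.

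IL18 at day 5 turned to -0.0107 after quantile normalization, and ran from -0.193 to 0.196 without 1 animal, below 0 without animals 3 and 4. IL1R2 at day 3 turned to -0.63 with the slide and -0.76 with the session as a block, and at day 5 to -0.57 with the session. The difference of IL18 minus IL18BP at day 7 turned to -0.00441 after quantile normalization and ran from -0.0849 to 0.147 without 1 animal, that of IL1B minus IL1RN at day 7 from -0.25 to 0.23. The IL1R1 minus IL1R2 difference at day 7 was 1.20 within session 1, with an adjusted p of 0.0195 over the 3 tests of that setting. The same arrays, those without animal 5, gave 0.0584 over 9 tests, so the smaller number of tests made the difference.

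The slide as a random block, used at day 5 where a fixed block could not be fitted, gave 3 members. The replicate block for the differences between 2 genes changed no call (the change of IL1R1 minus IL1R2 at day 7 was 1.21). It could hardly have given one after adjustment, since the smallest possible sign-flip p were 0.125, 0.0312 and 0.0156 with 4, 6 and 7 animals. Both settings were chosen after seeing the data. Dim probes limit IL1A, IL18R1 and the second IL18 probe.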

Other observations

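Before irradiation, the levels of IL1RAP and IL1R2, and narrowly those of IL1RN, separated by labelled sex. This was noticed after the values were seen and was not tested, and how many other genes of the array separate so was not counted. The brighter IL1RAP probe read 9.83, 9.78, 10.29 and 9.999 in the 4 males and 11.24, 11.45 and 11.17 in the 3 females. IL1R2 read 12.03, 12.82, 13.38 and 12.93 in the males and 14.56, 14.67 and 13.75 in the females. In both genes the lowest female lay above the highest male. For the brighter IL1RN probe the highest male read 12.95 and the lowest female 12.96. IL1R2 also separated at day 3 (males 13.53 to 13.79, the 1 female 14.17) and at day 5 (males 13.43 to 13.85, females 14.63 and 15.17), and at day 7 the highest male, at 13.944, lay just above the lowest female, at 13.934. IL1RAP read 11.16 in the 1 female at day 3, below the males (11.60 to 11.94), and at day 5 the females (11.71 and 12.39) lay within the male range (11.44 to 12.80). It overlapped at day 7 too, from 10.82 to 12.52 in males and 10.72 to 11.73 in females. Animal 5, a female, was the only pre-irradiation array of session 2.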
